A study of Mus musculus with 38 samples.

Results

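Immunoglobulin heavy and light chain genes were described in omental tumors of 2 mouse models of high-grade serous ovarian cancer (HGSOC). Genes were taken by symbol as the variable (V) and constant (C) genes of the heavy, kappa and lambda loci, provided that at least 1 tumor held 10 or more counts. This gave 202 of the 361 annotated genes with such symbols, out of 55487 genes in all, namely 97 heavy V, 90 kappa V and 3 lambda V genes, 8 heavy constant genes, the kappa constant gene Igkc and 3 lambda constant genes. Just outside the minimum stood Igkv5-37, Igkv7-33 and Igkv4-56, each with at most 9 counts in a tumor, and just inside stood Ighv5-2 with 10, Ighv8-2 with 11 and Igkv14-130 with 11. The 159 genes below the minimum together held 0.0140% of the immunoglobulin counts.

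An antibody is made of heavy and light chains, and each B cell joins 1 V gene per chain to a constant gene, so that the progeny of a single B cell share their V genes. The constant gene sets the isotype, with Ighm for IgM and Ighd for IgD made first, and Ighg1, Ighg2b, Ighg2c, Ighg3, Igha and Ighe for the IgG subclasses, IgA and IgE made after class switching. Plasma cells hold far more immunoglobulin RNA than resting B cells, and the omentum, a fold of abdominal fat, holds lymphoid clusters called milky spots that are rich in B-1 cells, innate-like B cells of the body cavities that make natural IgM.

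Bulk RNA was sequenced from 34 omental tumors, 17 per model, and from 2 cultures of each cell line. Female mice of 8 to 9 weeks were injected into the peritoneal cavity with 60577 cells (FVB mice) or HGS2 cells (C57BL/6J mice). Treated mice were dosed weekly, 3 times in all, with 20 mg/kg of carboplatin, which damages DNA, plus 10 mg/kg of paclitaxel, which stalls cell division, with the first dose on day 21 (60577) or day 49 (HGS2), and control mice received vehicle. Collection took place 1 day after the last dose (TP1), at 7 days (TP2) or at 21 days (TP3). The 60577 groups held 3 control and 3 treated tumors at TP1, 3 control and 4 treated tumors at TP2, and 4 treated tumors at TP3. The HGS2 groups held 3 and 3 at TP1, 4 control and 3 treated at TP2, and 4 treated at TP3. Replicate 1 of these TP3 tumors is absent from the tables of the study. It was described here but left out of every test, apart from alternatives that are said to use all 17 HGS2 tumors. No control tumors exist at TP3, and its tumors were set against those of the TP2 controls, where the effects of treatment, time and tumor age cannot be told apart. Each tumor is a single mouse of a model grown from a single cell line, and the libraries of a model differ from those of the other model in mouse strain and tumor age. The deposited values were estimated counts per gene, which summed to between 17839635 and 49299442 per tumor (median 27358649), and levels are given as CPM, which are counts scaled to a total of 1000000 in each library.

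V genes that carried the results are shown first, as read from the reference (GENCODE M21 transcripts, GRCm38, from the C57BL/6J strain). Ighv1-11 and Igkv8-16 led the heavy and kappa V counts of the most tumors. Of each coding sequence 300 bases are printed below from 5′ to 3′, out of V exons of 305 and 316 bases. Capitals mark the bases that differ from the most similar annotated V gene, Ighv1-76 for Ighv1-11 and Igkv8-19 for Igkv8-16. Both lie on the minus strand and in the V exon, at chr12:114612243-114612542 and chr6:70386672-70386971.
Ighv1-11: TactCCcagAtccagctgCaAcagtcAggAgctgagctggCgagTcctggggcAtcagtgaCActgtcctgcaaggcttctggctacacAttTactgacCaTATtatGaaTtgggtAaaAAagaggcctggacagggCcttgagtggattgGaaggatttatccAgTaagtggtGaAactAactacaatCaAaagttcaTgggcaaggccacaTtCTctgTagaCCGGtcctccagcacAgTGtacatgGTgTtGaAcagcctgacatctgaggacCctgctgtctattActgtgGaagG
Igkv8-16: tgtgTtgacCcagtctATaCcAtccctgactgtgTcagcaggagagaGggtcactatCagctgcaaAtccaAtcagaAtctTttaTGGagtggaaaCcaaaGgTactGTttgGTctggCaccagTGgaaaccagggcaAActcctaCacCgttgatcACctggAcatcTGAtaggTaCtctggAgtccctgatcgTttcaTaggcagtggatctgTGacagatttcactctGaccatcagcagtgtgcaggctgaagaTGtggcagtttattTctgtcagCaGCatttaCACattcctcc
Ighv1-11 was 82.0% identical to Ighv1-76 and Igkv8-16 was 82.2% identical to Igkv8-19, over their aligned exons. Across 91 heavy V genes with a coding exon, identity to the nearest gene had a median of 95.4%, and across 88 kappa V genes it had a median of 95.2%. Both genes stood farther from their nearest copies than most V genes did.

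The other 4 sequences are the last 120 bases of Ighv11-2, Ighv12-3, Igkv14-126 and Igkv4-91. The pairs Ighv11-2 with Igkv14-126 and Ighv12-3 with Igkv4-91 are known from B-1 cells of the peritoneal cavity that bind phosphatidylcholine. Capitals mark the last match to the letters TANTNNTGN, searched on the coding strand, which span the codons around the conserved cysteine before the junction with the next gene segment. The letters were found in the last 60 bases of 97.8% of heavy and 96.6% of kappa V genes.
Ighv11-2, chr12:114048241-114048360, minus strand: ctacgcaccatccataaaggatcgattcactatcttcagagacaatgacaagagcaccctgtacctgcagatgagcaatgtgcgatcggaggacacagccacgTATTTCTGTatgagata
Ighv12-3, chr12:114366521-114366640, minus strand: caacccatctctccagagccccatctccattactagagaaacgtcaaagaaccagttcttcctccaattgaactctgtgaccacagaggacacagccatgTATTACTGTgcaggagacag
Igkv14-126, chr6:67896523-67896642, plus strand: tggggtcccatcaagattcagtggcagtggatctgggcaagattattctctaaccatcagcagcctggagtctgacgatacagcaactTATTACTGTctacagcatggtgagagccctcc
Igkv4-91, chr6:68768555-68768674, minus strand: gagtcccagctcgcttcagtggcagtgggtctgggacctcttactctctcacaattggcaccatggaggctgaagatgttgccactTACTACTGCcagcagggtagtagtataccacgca
Ighv11-2 was 98.7% identical to Ighv11-1, with 4 differing bases, so their reads could be split between them and the value of Ighv11-2 is uncertain. Ighv12-3 was at most 78.2% identical to another annotated heavy V gene, Igkv14-126 at most 90.9% and Igkv4-91 at most 86.8% to another kappa V gene. The FVB mice of the 60577 model carry other V alleles than this reference, so V gene names in 60577 are those of the closest reference gene.

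In 60577, immunoglobulin RNA was low until 7 days after the last dose and high in every tumor 21 days after it. The summed level of the 202 genes was 264, 13.0 and 946 CPM in the TP2 controls and between 279 and 1647 CPM in the TP2 treated tumors. At TP3 it was 5660 CPM in the lowest of the 4 tumors, with a median of 5950 CPM and a highest value of 8899 CPM. The TP3 tumors lay above every other 60577 tumor, and their median was 22.5 times that of the TP2 controls and 14.4 times that of the TP2 treated tumors. The first ratio rests on 3 unlike controls, and was 12.4 without replicate 1, 9.84 without replicate 2 and 43.0 without replicate 3 of them, while the second stayed between 12.9 and 16.3 when any single tumor was left out. At TP1 controls ranged from 108 to 490 CPM (median 195) and treated tumors from 46.8 to 1136 CPM (median 107), which overlapped. In bulk RNA, a change in the number of B lineage cells and a change in immunoglobulin RNA per cell cannot be told apart.

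In HGS2 the level varied widely within each group, and treated and control tumors overlapped. It ranged from 942 to 3636 CPM in TP1 controls, from 1359 to 9807 CPM in TP1 treated, from 447 to 6698 CPM in TP2 controls, from 93.9 to 6275 CPM in TP2 treated, and from 353 to 13840 CPM in TP3 treated tumors. Replicate 1 of the TP3 tumors, which entered no main test, held the highest value of these 17 tumors. The median of the HGS2 controls was 6.57 times that of the 60577 controls at TP1 and 15.2 times at TP2. These ratios are imprecise, since leaving out single controls gave 3.74 (without replicate 1 of 60577) to 12.6 (without replicate 3 of HGS2) at TP1, and 6.63 to 29.0 at TP2 (without replicate 2 and replicate 3 of 60577). The plot of summed levels by tumor shows the 60577 rise at TP3 beside the wide HGS2 groups.

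**Figure D1:**
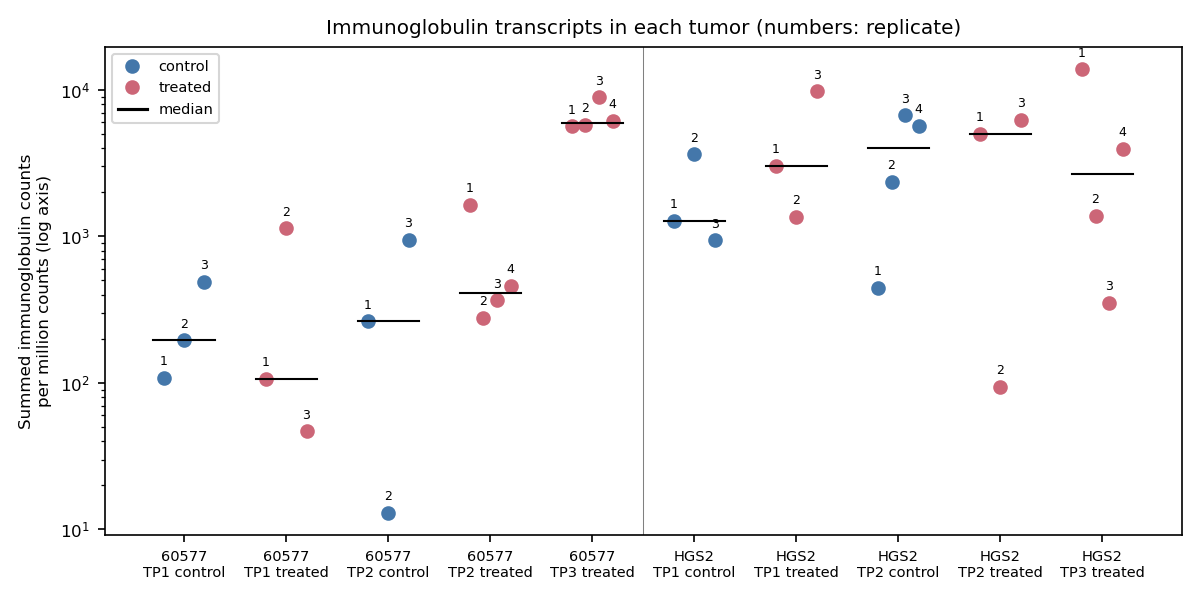
Summed immunoglobulin level of each tumor in CPM (log axis) by model, time point and treatment, with 1 point per tumor and a bar at the group median. The 60577 TP3 treated tumors sit between 5660 and 8899 CPM above all other 60577 tumors, while the HGS2 groups overlap.

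Of the 202 genes, 80 passed the filter of 1 CPM in at least 25% of tumors and were tested (69 V and 11 constant genes). The other 122, among them Ighe, were not tested. Since V genes pass this filter only where enough tumors express them, the counts below describe the genes tested and not all 202. The filter counted tumors of every group, TP3 included, so a gene could pass through the group in which it was high. A call required a log2 fold change of more than 1 in either direction together with an adjusted p under 0.05. P-values came from the two-sided quasi-likelihood test of edgeR, adjusted by Benjamini and Hochberg's method over all 16241 genes tested, unless another tool is named.

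At TP3 in 60577, 57 of the 80 genes were higher than in the TP2 controls and none was lower, against 14.2% of all genes tested that were called higher and 10.2% called lower. The count was 34 with both models in 1 fit and 97 without a filter on low counts. Only 15 of the 80 genes reached 1 CPM in at least 9 tumors of 60577, the number that the filter asked of the 33 tumors together. The filter also counted the TP3 tumors. The count of 57 is therefore a description of the genes tested and no result on all members. Called higher were 11 of 23 heavy V genes, 35 of 43 kappa V genes, 3 of 3 lambda V genes, 4 of 7 heavy constant genes and 4 of 4 light constant genes. The median log2 fold change was 4.03 over the 80 genes and -0.00039 over all genes. In 59 of the 80 genes every TP3 tumor lay above every TP2 control, against 34.3% of all genes tested.

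Ighm, the IgM constant gene, stood at 2631, 1948, 2526 and 3101 CPM in the TP3 tumors and at 99.2, 3.83 and 176 CPM in the TP2 controls. Even the lowest TP3 tumor was above the highest TP2 control, and the log2 fold change was 4.68 (SE 1.29, adjusted p = 0.00708). Igkc, which forms most mouse light chains, stood at 1488, 1378, 2130 and 1358 CPM at TP3 and at 54.2, 3.20 and 227 CPM in the TP2 controls. Its groups did not overlap either, with a log2 fold change of 3.99 (SE 1.31, adjusted p = 0.0193). Without replicate 1 of the TP2 controls Igkc no longer passed the threshold (log2 fold change 3.75, adjusted p = 0.0656), and over all 25 alternatives its adjusted p lay between 0.0014 and 0.0656.

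The switched isotypes moved unequally. Ighg3, an IgG subclass made largely against carbohydrate antigens, was at 0.74, 2.19 and 0.45 CPM in the TP2 controls and at 35.4, 789, 697 and 141 CPM at TP3. The groups stood apart while the TP3 tumors themselves spread widely, and its log2 fold change of 8.36 (SE 1.56, adjusted p = 0.000403) was the largest of the 80 genes. Ighg2c also rose by the test, with a log2 fold change of 3.68 (SE 1.37, adjusted p = 0.0347), but it reached only 0.17, 9.84, 4.51 and 1.22 CPM at TP3. It reached 1 CPM in 3 tumors of 60577 and 14 of HGS2. It was thus tested only because HGS2 tumors counted in the filter, and its call is given as description. Ighg2c lost the call in 9 of 26 alternatives, namely limma-voom, DESeq2, a replicate block, a fit of both models together, and without replicate 1, 2 or 3 of the TP2 controls or replicate 2 or 3 of the TP3 tumors, with log2 fold changes of 2.69 to 4.51 and adjusted p between 0.00658 and 0.164 over the alternatives.

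Ighg1, Ighg2b and Igha did not pass the threshold at TP3. Ighg1 was at 451, 225, 1586 and 138 CPM at TP3 and at 22.6, 0.29 and 276 CPM in the TP2 controls, so a control lay within the TP3 range (log2 fold change 2.55, SE 1.65, adjusted p = 0.212). Without that control, replicate 3, Ighg1 passed the threshold (log2 fold change 5.52, adjusted p = 0.0466), as it did under limma-voom and against the mean of TP1 and TP2 controls, and its adjusted p lay between 0.0202 and 0.508 over 26 alternatives. Ighg2b was at 10.6, 27.6, 53.5 and 45.2 CPM at TP3 and at 7.25, 0.16 and 9.95 CPM in the TP2 controls (log2 fold change 2.46, SE 1.03, adjusted p = 0.0580), and its groups did not overlap. It passed in 6 of 26 alternatives, among them limma-voom, DESeq2 and the fits without replicate 2 of the TP1 treated, replicate 2 of the TP2 treated or replicate 1 of the TP3 tumors, with log2 fold changes of 1.88 to 3.65 and adjusted p between 0.00236 and 0.221. Igha was at 75.8, 213, 197 and 96.2 CPM at TP3 and at 35.1, 0.46 and 109 CPM in the TP2 controls, which overlapped (log2 fold change 1.52, SE 1.19, adjusted p = 0.303). The plot of constant gene fold changes shows these genes side by side.

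**Figure D2:**
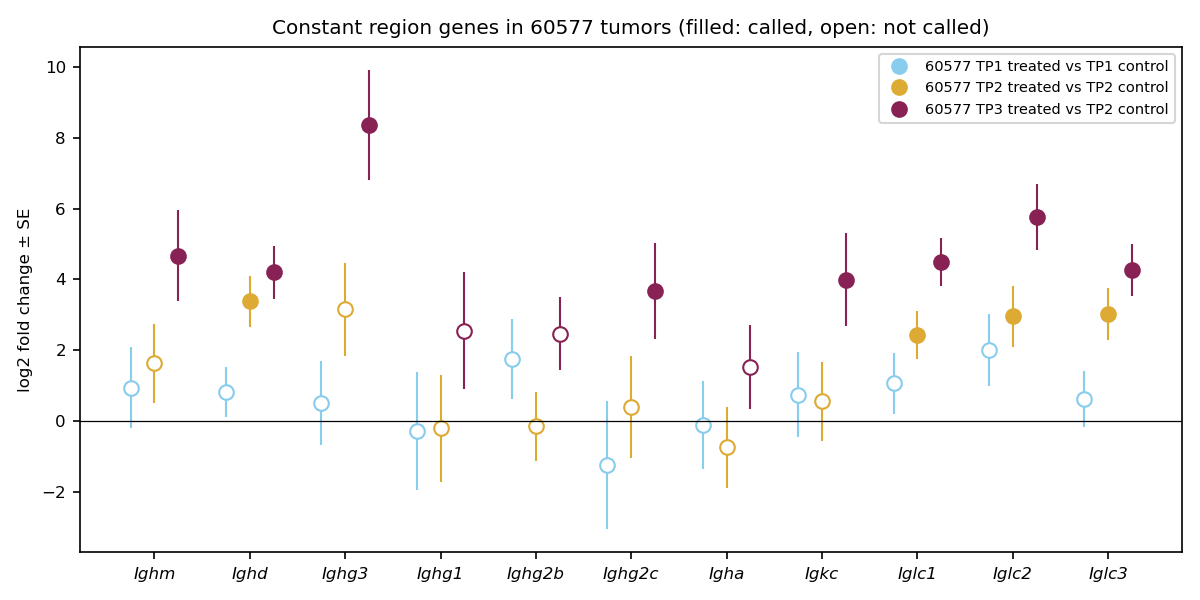
Log2 fold change of each tested heavy and light constant gene in 60577 tumors, with bars of 1 SE, for treated against control tumors at TP1 and TP2 and for TP3 against the TP2 controls. Filled points passed the test, and at TP3 these include Ighm (4.68), Igkc (3.99) and Ighg3 (8.36) but not Ighg1, Ighg2b and Igha.

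Among V genes, Ighv1-11 and Igkv8-16 rose most at TP3. Ighv1-11 was at 0.45, 0.29 and 0.04 CPM in the TP2 controls and at 23.8, 107, 98.2 and 153 CPM at TP3, with a log2 fold change of 8.26 (SE 1.59, adjusted p = 0.000514). Igkv8-16 was at 2.08, 0.49 and 0.18 CPM in the TP2 controls and at 82.6, 355, 342 and 582 CPM at TP3, with a log2 fold change of 8.31 (SE 1.84, adjusted p = 0.00156). In both genes replicate 1 was the lowest TP3 tumor and replicate 4 the highest.

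The 4 V genes known from phosphatidylcholine-binding B-1 cells rose as well. Igkv14-126 was at 90.1, 38.8, 22.7 and 25.2 CPM at TP3 and at no more than 0.29 CPM in the TP2 controls, with a log2 fold change of 8.09 (SE 1.31, adjusted p = 0.00013). The log2 fold change was 7.89 for Igkv4-91 (SE 1.74, adjusted p = 0.0015), 7.88 for Ighv12-3 (SE 1.69, adjusted p = 0.0012) and 6.16 for Ighv11-2 (SE 1.13, adjusted p = 0.00036). Ighv11-2 was highest in replicate 1, at 56.3 CPM against 23.5, 15.7 and 17.9 CPM in the others, so the tumor lowest in Ighv1-11 was the highest in Ighv11-2. Igkv6-32 (log2 fold change 6.07) and Igkv3-7 (6.06) were called higher too. Each reached 1 CPM in just the 9 tumors that the filter needs, 3 and 5 of them of 60577, so these 2 calls are given as description.

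Lambda light chains, a minority in mice, rose from far lower levels. Iglv2 had a log2 fold change of 6.95 (SE 1.39, adjusted p = 0.000696), with 4.505, 3.70, 42.5 and 8.82 CPM at TP3 and no more than 0.22 CPM in the TP2 controls. The log2 fold changes of the lambda constant genes were 5.77 for Iglc2, 4.50 for Iglc1 and 4.27 for Iglc3. The 3 lambda constant genes share much sequence, so reads could be split between them. Per kb of exon, the median level at TP3 was 2693 CPM for Igkc and 43.1 CPM for Iglc2.

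At TP2, 11 of the 80 genes passed the test against the TP2 controls, 8 higher and 3 lower, against 14.8% of all genes called higher and 9.61% called lower. The count of 11 fell under limma-voom and with both models fitted together, and was 7 to 15 when single tumors were left out. The median log2 fold change was 1.03, beside 0.031 over all genes. The TP2 and TP3 comparisons share their controls, so their values are given side by side and are not independent. Ighd, the IgD constant gene that mature naive B cells transcribe together with Ighm, was at 4.49, 0.98 and 3.50 CPM in the TP2 controls, at 36.5, 10.8, 50.2 and 28.4 CPM in the TP2 treated tumors and at 58.2, 59.4, 63.7 and 60.2 CPM at TP3. All treated tumors lay above all controls, with a log2 fold change of 3.39 at TP2 (SE 0.72, adjusted p = 0.00114) and 4.20 at TP3 (SE 0.74, adjusted p = 0.000262).

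The lambda genes Iglc3 (log2 fold change 3.02, adjusted p = 0.00272), Iglc2 (2.96, adjusted p = 0.0087), Iglc1 (2.44, adjusted p = 0.00662) and Iglv3 (3.77, adjusted p = 0.00338) also rose at TP2. Iglv3 reached 1 CPM in just the 9 tumors that the filter needs, 5 of them of 60577, so its call is given as description. With both models in 1 fit Iglc1 lost its call (log2 fold change 2.44, adjusted p = 0.128), the only 1 of 25 alternatives in which it did, with log2 fold changes of 2.07 to 3.06. Ighm did not pass the threshold there (log2 fold change 1.63, adjusted p = 0.218), with 605, 181, 158 and 207 CPM in the treated tumors and a control at 176 CPM within that range. Ighg3 was at 12.1, 3.27, 17.01 and 9.26 CPM, above every control, with an adjusted p of 0.0509 (log2 fold change 3.15). It passed in 8 of 25 alternatives, among them DESeq2, a replicate block and the fit without replicate 2 of the TP2 treated tumors (log2 fold change 3.45, adjusted p = 0.0415), and its adjusted p lay between 0.0123 and 0.214. The other fits in which Ighg3 passed left out replicate 1 or 2 of the TP1 controls, replicate 2 or 3 of the TP1 treated tumors or replicate 1 of the TP3 tumors, none of which enters the contrast itself, and kept its log2 fold change at 3.15.

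The other 6 genes called at TP2 were V genes that were high in 1 or 2 tumors. Igkv1-117 (log2 fold change 3.12) was at 31.0 CPM in replicate 1 of the treated tumors and at 0.98 to 1.84 CPM in the others, beside 1.15, 0 and 1.82 CPM in the controls. Without that tumor the log2 fold change of Igkv1-117 was 0.53 (adjusted p = 0.587). Ighv7-1 (3.57) was highest in replicates 1 and 2, at 9.78 and 4.77 CPM, and lost the call in 12 of 25 alternatives, with adjusted p between 0.0101 and 0.126. Igkv3-7 (4.93) was at 3.07 CPM in replicate 1 and at no more than 0.26 CPM in the others, and had a log2 fold change of 2.59 (adjusted p = 0.0895) without that tumor. The 3 lower genes, Igkv10-94 (-3.91), Igkv4-72 (-3.46) and Igkv4-57 (-2.90), were at 11.3, 7.62 and 15.1 CPM in replicate 3 of the controls and at no more than 0.42 CPM in the other controls. Without that control none of the 3 was called and the sign turned, with log2 fold changes of 0.041, 1.32 and 1.92 in that order.

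At TP1, 3 of the 80 genes were called higher and none lower, against 9.65% of all genes called higher and 5.96% called lower. Ighv1-53 was at 0 in every TP1 control and at 0.03, 0.34 and 0.33 CPM in the treated tumors, at least 6.04-fold higher when the controls are set to 3 counts over the group. It reached 1 CPM in no 60577 tumor and was tested because HGS2 tumors carried it past the filter, and it lost its call in 8 of 24 alternatives. Igkv2-137 (log2 fold change 5.17, adjusted p = 0.0189) and Igkv14-126 (4.57, adjusted p = 0.0338) overlapped between the groups and were highest in replicate 2 of the treated tumors, at 4.20 and 4.43 CPM. No call remained under limma-voom, a replicate block or a fit of both models, nor without replicate 1 or 2 of the controls or replicate 2 of the treated tumors, and 1 remained without replicate 3 of the controls. Over the alternatives the log2 fold change of Igkv2-137 was 2.26 to 8.31 and that of Igkv14-126 was 1.63 to 6.03.

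Between treated tumors, 3 of 80 genes (Ighd, Iglc1 and Iglc3) were called higher from TP1 to TP2, a share near the 3.58% of all genes. None of these 3 calls remained with a replicate block or with both models fitted together. When single tumors were left out, 0 to 8 genes were called. From TP2 to TP3, 43 of the 80 were called higher, against 3.47%. The filter counted the TP3 tumors, so this count describes the genes tested. None of the 80 was lower in either step, against 2.44% and 4.4% of all genes. From TP2 to TP3 the median log2 fold change was 2.86 over the 80 genes and -0.014 over all genes. Ighg3 rose by a log2 fold change of 5.21 (SE 1.15, adjusted p = 0.0058), Ighv1-11 by 5.62 (SE 1.16, adjusted p = 0.00445), Igkv8-16 by 5.72 (SE 1.39, adjusted p = 0.00875), Igkc by 3.44 (SE 1.13, adjusted p = 0.0306) and Ighm by 3.04 (SE 1.06, adjusted p = 0.0375). The largest log2 fold changes were those of Igkv3-4 (5.99) and Igkv6-25 (5.84), both highest in replicate 3, at 44.3 and 71.4 CPM. Without that tumor neither was called, with log2 fold changes of 2.80 and 3.62. Igkv3-4 and Igkv6-25 reached 1 CPM in 12 and 11 tumors, where the filter needs 9 and counted the TP3 tumors. Their changes are given as description.

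Ighd did not pass this step (log2 fold change 0.82, SE 0.57, adjusted p = 0.264), with a 95% interval from -0.39 to 2.03. Without replicate 3 or 4 of the TP2 treated tumors, or replicate 3 of the TP3 tumors, the count of 43 fell to 24, 25 and 25, and with both models in 1 fit it fell to 17. Ighm lost its call in this step in 10 of 25 alternatives, namely limma-voom, a replicate block, a fit of both models, and without replicate 2, 3 or 4 of the TP2 treated or any of the 4 TP3 tumors, with log2 fold changes of 2.84 to 3.68 and adjusted p between 0.00501 and 0.106. Igkc lost its call in 6 of 24, namely the block, both models in 1 fit, and without replicate 2, 3 or 4 of the TP2 treated tumors or replicate 3 at TP3, with log2 fold changes of 3.16 to 4.60 and adjusted p between 0.00907 and 0.0904. Without replicate 1 of the TP2 treated tumors Ighg1 passed in this step (log2 fold change 4.75, adjusted p = 0.033), with adjusted p between 0.033 and 0.423 over 25 alternatives.

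In HGS2 no immunoglobulin gene was called by edgeR at TP1, TP2 or TP3, where 0% of all 16241 genes were called, and limma-voom and DESeq2 called none of the immunoglobulin genes either. At an unadjusted p below 0.05 stood 1, 8 and 2 of the 80 genes, or 1.25%, 10% and 2.50%, beside 2.54%, 7.59% and 2.50% of all genes. The log2 fold change of Ighm was 1.301 at TP1 (95% interval -1.52 to 4.12), -0.057 at TP2 (-2.66 to 2.54) and -1.05 at TP3 (-3.72 to 1.61). The intervals of Igkc were alike, from -1.63 to 3.94, from -2.66 to 2.49 and from -3.63 to 1.65. All 6 intervals hold changes of more than 2-fold in either direction, so changes of that size were not detectable with the spread between these tumors. The signs of both genes turned at TP3 when all 17 HGS2 tumors were fitted. At TP2 they turned with the replicate block and without some single tumors.

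An interaction term tested whether the treatment response differed between 60577 and HGS2. At TP2, 3 of the 80 genes had a lower response in HGS2, against 3.21% of all genes that were lower and 3.68% that were higher, namely Iglv3 (difference in log2 fold change -6.11, adjusted p = 0.0344), Ighd (-6.02, adjusted p = 0.0448) and Iglc3 (-4.23, adjusted p = 0.0451). The difference of Iglv3, which reached 1 CPM in just the 9 tumors that the filter needs, is given as description. Ighd in HGS2 at TP2 was at 1.19, 0.28, 59.6 and 8.17 CPM in the controls and at 3.34, 1.35 and 3.70 CPM in the treated tumors, so replicate 3 of the controls alone was as high as the 60577 treated tumors. The log2 differences over the 41 alternatives were -6.52 to -3.65 for Ighd, -5.59 to -3.71 for Iglc3 and -9.69 to -4.22 for Iglv3, with adjusted p up to 0.211, 0.170 and 0.111. No gene remained without that control, nor without replicate 2 of the 60577 controls, replicate 3 or 4 of the 60577 treated tumors or replicate 2 of the HGS2 treated tumors, and none was called without a filter, under limma-voom, with a replicate block or with all 17 HGS2 tumors. At TP1 none of the 80 genes differed by edgeR, beside 0.449% of all genes that were higher and 0.997% that were lower in HGS2, while 5 did at an unadjusted p below 0.05 (6.25%, beside 18.8% of all genes), limma-voom called 0 and DESeq2 1.

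Isotype shares were computed from counts per kb of exon of the 8 heavy constant genes and are given without a test. Ighm was the leading isotype in 32 of 34 tumors. The exceptions were replicate 3 of the 60577 TP2 controls, where Ighg1 held 42.6%, and replicate 1 of the HGS2 TP1 controls, where Ighg2c held 45.7%. In 60577 the median Ighm share was 71.0% and 77.0% in TP1 control and treated tumors, 53.9% and 67.1% at TP2, and 75.4% at TP3. In HGS2 it was 64.3% and 73.3% at TP1, 75.6% and 70.7% at TP2, and 51.9% at TP3. Groups overlapped in both models, so the rise in level at TP3 in 60577 was not accompanied by a separate range of IgM shares.

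The Ighd share of treated 60577 tumors was higher at TP2 than at TP3, without overlap. It was between 3.96% and 20.0% in TP2 treated tumors (median 7.35%) and between 1.42% and 2.00% at TP3 (median 1.79%). Ighd levels were nearly equal among TP3 tumors, from 58.2 to 63.7 CPM, while Ighg3 differed between 35.4 and 789 CPM among the same tumors. The 4 IgG genes together held 6.92% to 38.5% at TP3 (median 19.2%) and 1.90% to 24.3% at TP2 in treated tumors (median 12.3%).

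At TP3 in 60577 the leading switched isotype was Ighg1 in replicate 1 (10.6%) and replicate 3 (25.8%), and Ighg3 in replicate 2 (20.1%) and replicate 4 (3.05%). Igha led the switched isotypes in all 3 TP1 treated tumors of 60577, with 4.41% to 12.1%. Igha had its highest share of any 60577 tumor in replicate 2 of the TP1 controls, at 27.7%. Ighe, the IgE constant gene, never exceeded 3.01% of heavy constant counts per kb, in a TP1 control of 60577, and was at most 0.13% in HGS2.

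Ighg2c held at most 1.05% in 60577 and up to 45.7% in HGS2, where it led the switched isotypes in 11 of 17 tumors, among them all 3 TP1 controls (45.7%, 21.6% and 9.78%). Many mouse strains carry Ighg2a in place of Ighg2c, and the annotation used here holds Ighg2c alone, so gene content and mapping cannot be told apart from the use of the isotype. The plot of isotype shares shows each tumor.

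**Figure D3:**
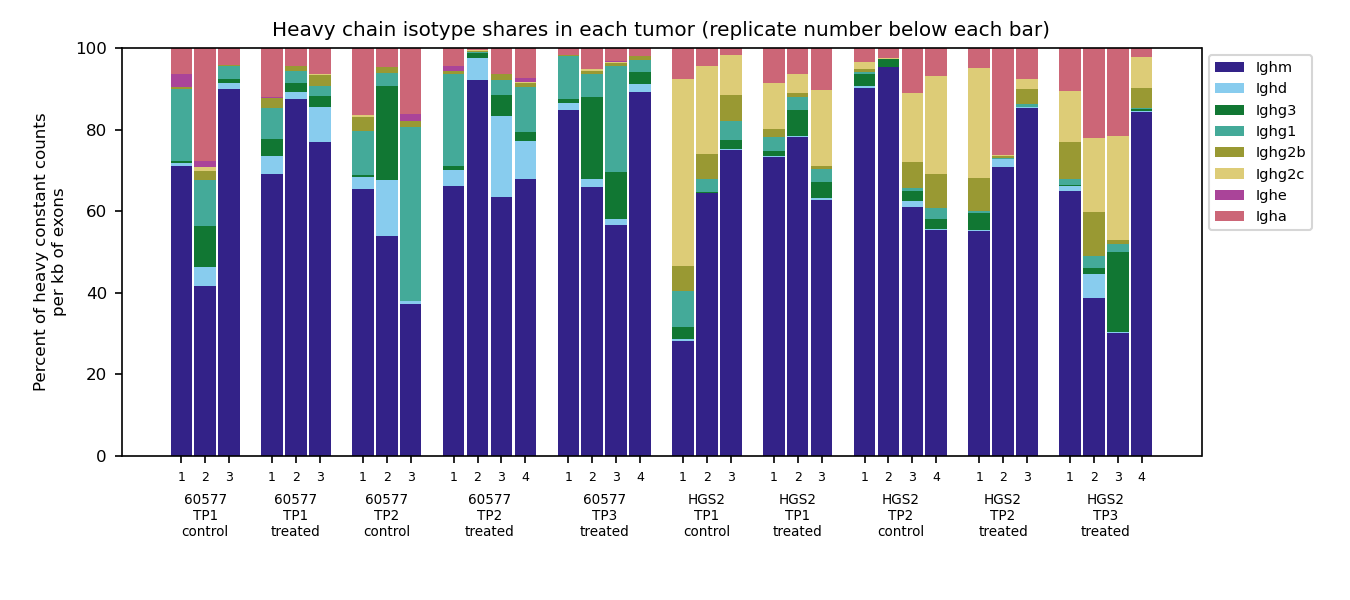
Share of each heavy constant gene in the heavy constant counts per kb of exon (percent, stacked to 100) with 1 bar per tumor, by model, time point and treatment. Ighm is the largest segment in 32 of 34 tumors, and Ighg2c reaches 45.7% in HGS2 but at most 1.05% in 60577.

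Few V genes held most V counts of a tumor. Over the 34 tumors the leading heavy V gene held a median of 22.3% of heavy V counts (6.20% to 60.2%), and a median of 4 genes (1 to 16) sufficed to reach 50%. The leading kappa V gene held a median of 22.3% of kappa V counts (7.55% to 68.7%), and a median of 5 genes (1 to 13) reached 50%. The effective number of genes, which is the number of equally used genes that would give the same inverse Simpson index, was 9.63 for heavy (2.42 to 43.0) and 9.96 for kappa V genes (2.10 to 31.7). Shares of a single tumor are given with exact (Clopper-Pearson) 95% intervals, which cover counting error only.

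In heavy V use at TP3 in 60577 the effective number was 2.66 to 6.32 (median 5.21), against 4.17 to 20.4 in the TP2 treated tumors (median 15.6), and these ranges overlapped through replicate 2 of the TP2 treated tumors. In the TP2 controls it was 21.5, 2.42 and 3.07, the second of these from 15 counts, so low values were not confined to TP3. Thinned to 200 V counts per tumor, the TP3 range was 2.69 to 6.20, which is nearly the same as at full depth. For kappa V genes the effective number at TP3 was 2.27 to 15.2 (median 7.08) and in TP2 treated tumors 9.25 to 22.9 (median 18.5), which overlapped.

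At TP3, Ighv1-11 led in replicates 2, 3 and 4 with 41.9% (40.7% to 43.1%), 35.9% (34.8% to 37.0%) and 60.2% (59.1% to 61.3%) of heavy V counts. Igkv8-16 led the kappa V counts of the same tumors with 44.3%, 28.5% and 66.1%. Replicate 1 differed, with Ighv11-2 at 30.6% (29.2% to 32.0%) and Ighv12-3 at 20.1%, and with Igkv14-126 at 13.1% (12.6% to 13.6%) ahead of Igkv8-16 at 12.02%. Ighv11-2 and Ighv12-3, whose ends are printed above, together held 50.7%, 32.0%, 14.7% and 11.2% of heavy V counts in replicates 1 to 4, and Igkv14-126 and Igkv4-91 held 20.5%, 14.9%, 3.66% and 4.65% of kappa V counts. In the other tumors the heavy pair held up to 20.8%, in a 60577 TP1 treated tumor with 53 heavy V counts, 17.6% in replicate 3 of the 60577 TP1 controls and 15.1% in replicate 1 of the HGS2 TP1 treated tumors. The kappa pair held up to 9.57% in the other tumors, in that same HGS2 tumor. TP3 replicates 1 and 2 thus lay above all other tumors in both pairs, while replicates 3 and 4 lay within their range.

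Ighv1-11 and Igkv8-16 led together. Ighv1-11 led the heavy V counts in 9 of 34 tumors, 6 of 60577 and 3 of HGS2, and Igkv8-16 led the kappa V counts in all 9 of them. Igkv8-16 led in 6 of the other 25 tumors. The heavy and kappa counts of a tumor come from the same library, and bulk RNA does not show which chains were paired in a cell. Neither gene was confined to treated tumors, since both led in replicate 2 of the 60577 TP2 controls, with 15 heavy and 36 kappa V counts, and in replicate 2 of the HGS2 TP1 controls, with 8.49% (7.89% to 9.12%) and 19.4% (18.7% to 20.1%).

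**Figure D4:**
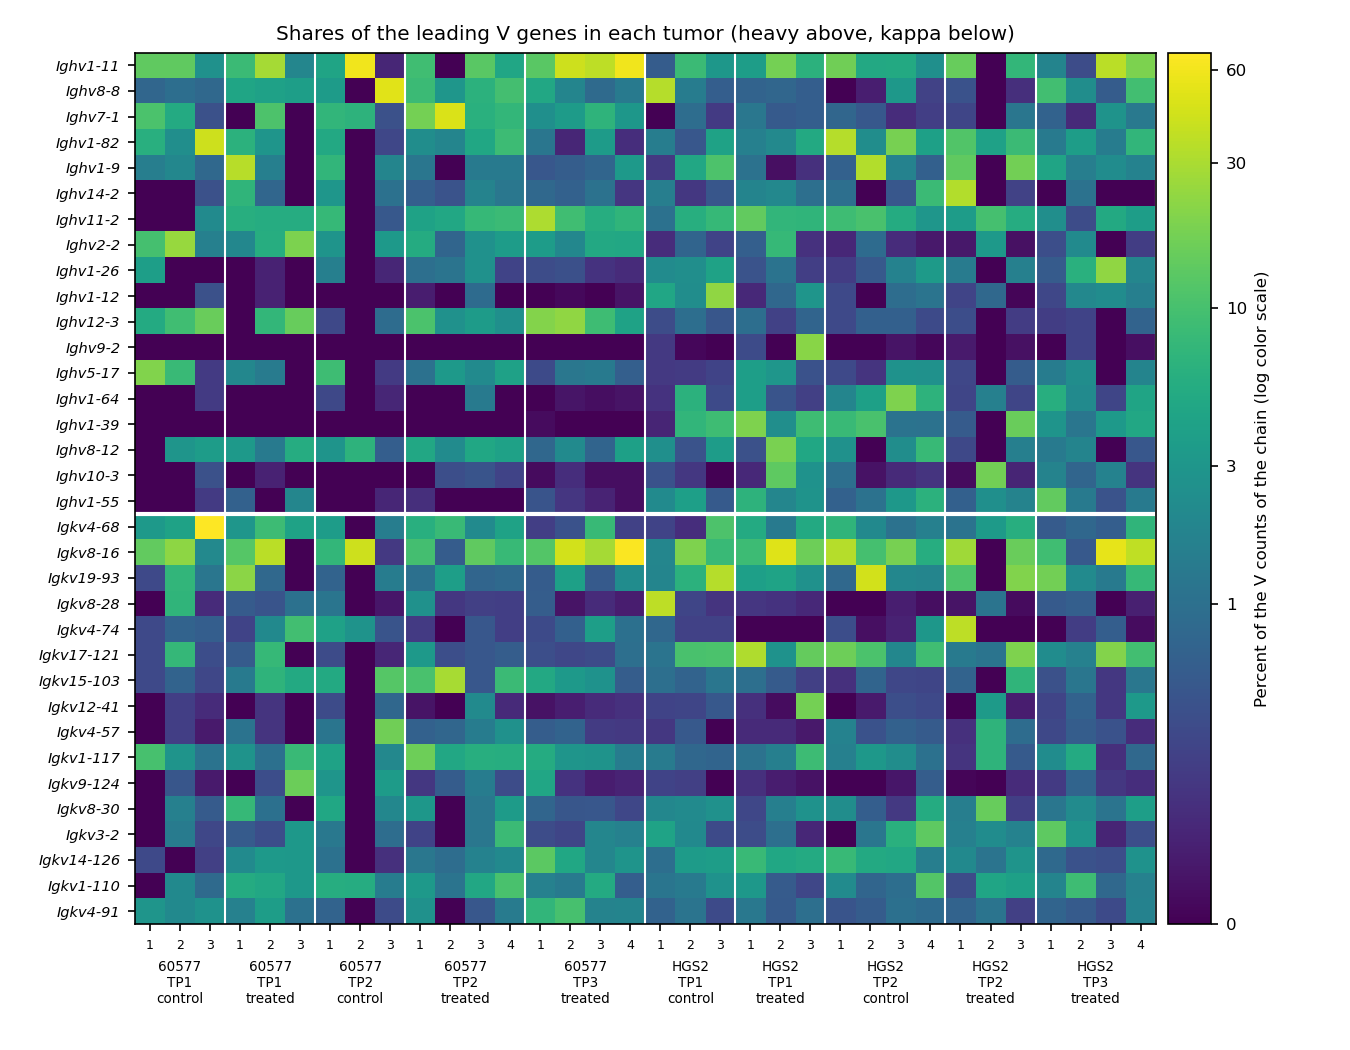
Share of heavy V counts (upper) and kappa V counts (lower) held by each V gene that led in at least 1 tumor or belongs to the B-1 pairs, in percent on a log color scale, with tumors in columns by model, time point and treatment. In replicate 4 of the 60577 TP3 tumors Ighv1-11 reaches 60.2% and Igkv8-16 reaches 66.1%.

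Outside TP3, Igkv8-16 led the kappa V counts of 6 of the other 13 tumors of 60577, and other genes led in the remaining ones. In 60577 at TP2, Ighv8-8 led replicate 3 of the controls with 50.6% (47.4% to 53.8%), followed by Ighv2-6 with 25.6%, the same tumor in which Ighg1 was the leading isotype. Ighv7-1 held 47.6% (41.4% to 53.7%) in replicate 2 of the TP2 treated tumors, which was also the tumor with 92.04% Ighm. Igkv4-68 held 68.7% (66.4% to 70.9%) of kappa V counts in replicate 3 of the TP1 controls, the largest share of any V gene in these tumors, beside Ighv1-82 with 41.2% of heavy V counts. V shares in tumors with under 200 V counts are imprecise, as in replicate 3 of the TP1 treated tumors with 53 heavy and 96 kappa V counts.

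Heavy V counts were led by 13 different genes in 17 HGS2 tumors and by 8 in 17 tumors of 60577, and kappa V counts by 9 in each model. The median effective number of heavy V genes was 11.3 in HGS2 and 6.84 in 60577, and that of kappa V genes 7.69 and 12.9, with ranges that overlapped. Among HGS2 leaders were Ighv8-8 with 33.4% (31.8% to 35.1%) in replicate 1 of the TP1 controls, the tumor led by Ighg2c, Ighv14-2 with 32.2% in replicate 1 of the TP2 treated tumors and Ighv1-9 with 32.6% in replicate 2 of the TP2 controls. Igkv19-93 led the kappa V counts in 4 HGS2 tumors and 1 60577 tumor, among them the last named, with 43.8% (42.8% to 44.8%). Replicate 2 of the HGS2 TP3 tumors had the most even use, with Ighv1-26 leading at 6.20% (5.29% to 7.21%) and 16 genes needed to reach 50%.

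**Figure D5:**
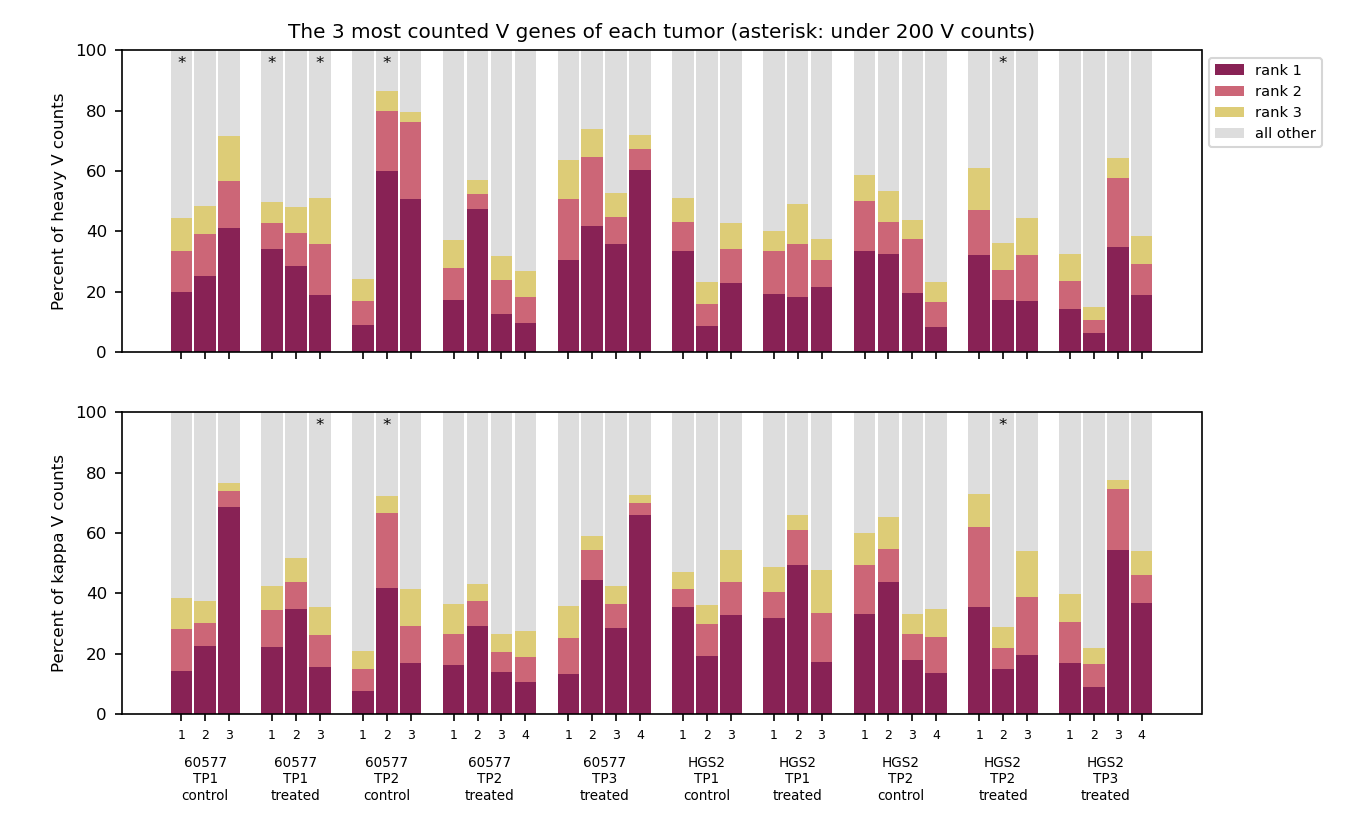
Percent of heavy (upper) and kappa (lower) V counts held by each of the 3 most counted V genes and by all other V genes, with 1 bar per tumor by model, time point and treatment, and an asterisk over tumors with under 200 V counts of that chain. The leading heavy V gene holds between 30.6% and 60.2% in the 60577 TP3 tumors and 6.20% in replicate 2 of the HGS2 TP3 tumors.

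The Ighv1 family, the largest V gene family of the mouse heavy locus, held a median of 38.8% of heavy V counts in 60577 (8.76% to 86.7%) and 60.5% in HGS2 (34.4% to 82.3%). Of the 190 V genes, 121 reached 10 counts in a tumor of both models, 16 in 60577 alone and 53 in HGS2 alone, and none did in all 34 tumors. Between the control tumors, 58 of 80 genes were higher in HGS2 than in 60577 and none was lower, against 13.2% of all genes called higher and 8.81% called lower. The count was 24 under limma-voom and 28 with a replicate block, and without a filter on low counts 106 genes were higher and 4 lower. This count is a description and no result on the members, since many of the genes reached the 9 tumors of the filter in HGS2 but not in 60577. Of the 80 genes, 37 reached 1 CPM in at least 9 tumors of HGS2 but not of 60577, and 35 of them are among the 58. Only 15 genes reached 1 CPM in at least 9 tumors of 60577, all of which also did so in HGS2, and 10 of these were called higher.

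Among the 37 genes that reached 1 CPM in at least 9 tumors of HGS2 but not of 60577, Ighg2c had a log2 difference of 9.88 between control tumors, given as a description. Of these 37, 8 reached 1 CPM in no 60577 tumor, namely Ighv1-15, Ighv1-26, Ighv1-39, Ighv1-53, Ighv1-55, Ighv1-64, Ighv1-76 and Ighv6-3. Ighv1-39 and Ighv1-76 were at 0 in each of the 6 60577 controls. Ighv1-39 was at 0.10 to 17.7 CPM in the HGS2 controls. Ighm differed by 3.54 (SE 0.98, adjusted p = 0.00412), Igkc by 3.19 (SE 0.99, adjusted p = 0.00917) and Igha by 2.35 (SE 0.97, adjusted p = 0.0446), whereas Ighd and Ighg1 did not pass the threshold. Igha lost its call in 12 of 41 alternatives, namely without a filter, with a replicate block, with all 17 HGS2 tumors, and without replicate 1 or 3 of the 60577 TP1 controls, replicate 1 or 2 of the 60577 TP2 controls, replicate 2 of the 60577 TP3 tumors, replicate 1 or 2 of the HGS2 TP1 controls or replicate 3 or 4 of the HGS2 TP2 controls, with log2 differences of 1.91 to 3.01 and adjusted p between 0.0158 and 0.279. Ighg2b lost its call under limma-voom alone, and Igkc and Ighg3 under a replicate block alone. Ighg2c and Iglc3 reached 1 CPM in 3 and 7 tumors of 60577, beside 14 and 13 tumors of HGS2. Their calls are given as description, with Ighg2c not called under limma-voom and Iglc3 not called under the block. Model, mouse strain, tumor age and mapping to the C57BL/6J reference cannot be told apart in these differences. Other cell type genes differed between the same controls. Higher in HGS2 were all 5 macrophage, all 5 pancreatic acinar, 4 of 6 T cell, 5 of 10 B cell, 5 of 10 plasma cell and 2 of 4 adipocyte genes, and all 4 tested epithelial tumor cell genes were lower. The summed epithelial level was 1428 to 2592 CPM in the 60577 controls and 13.6 to 594 CPM in the HGS2 controls, and the part of this in the immunoglobulin differences was not tested.

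Other genes of antibody production were read from fixed lists in the same fit. Of 10 tested plasma cell genes, 5 were higher at TP3 in 60577 and 1 was lower, with a list median of 0.81. Jchain, which joins IgM and IgA into polymers, was at 392, 338, 586 and 322 CPM at TP3 and at 18.0, 0.65 and 62.1 CPM in the TP2 controls (log2 fold change 3.85, 95% interval 1.09 to 6.62, adjusted p = 0.0218), and lost the call without replicate 1 of the TP2 controls (3.67, adjusted p = 0.0697; 0.00155 to 0.0697 over 26 alternatives). Mzb1, a chaperone of antibody assembly in the endoplasmic reticulum, was at 23.3, 26.7, 47.0 and 25.6 CPM at TP3 and at 1.35, 0.23 and 3.23 CPM in the TP2 controls (log2 fold change 4.19, SE 0.86, adjusted p = 0.000881). Replicate 3 was highest in both genes, as it was in summed immunoglobulin level.

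Prdm1, Irf4 and Eaf2 rose at both TP2 and TP3, and Sdc1, a plasma cell surface proteoglycan that epithelial cells also make, was lower at both. At TP2, 3 of the 10 plasma cell genes were higher and 2 lower, the other lower gene being Derl3, a factor of protein quality control in the endoplasmic reticulum (log2 fold change -1.11, adjusted p = 0.025). From TP2 to TP3, Mzb1, Derl3 and Eaf2 rose. Jchain passed the test at TP3 but not at TP2 against the same controls (log2 fold change 0.93, adjusted p = 0.499), where its log2 fold change was -0.42 without replicate 1 of the treated tumors. Jchain was not called in the direct step from TP2 to TP3.

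All 10 B cell surface and lineage genes read here, such as Ms4a1 and Cd79a, were higher at TP2 and at TP3, 2 of them at TP1, and none changed by the test from TP2 to TP3. Their summed level was 30.3, 6.90 and 23.1 CPM in the TP2 controls, 113 to 296 CPM in the TP2 treated tumors and 428 to 553 CPM at TP3. Cd22, an inhibitory receptor of B cells, was the most abundant of them. At TP2 in treated tumors the B cell genes thus stood apart from the controls, while Ighm and Igkc overlapped them.

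Of 9 tested factors that help B cells survive and gather, 6 rose at TP3, among them Tnfsf13b, the survival factor BAFF (log2 fold change 1.47), and Cxcl13, which draws B cells into follicles (3.11, adjusted p = 0.00271). Cxcl13 alone of these rose from TP2 to TP3 (2.48, adjusted p = 0.0115), from a range of 4.88 to 34.9 CPM to one of 82.5 to 129 CPM. Of 6 tested germinal center genes, Gcsam was higher at TP3 (3.34) and Mybl1 and Ung were lower. Among 7 tested receptors and carriers of antibody, Fcgrt, the neonatal Fc receptor (1.37), and Fcmr, the IgM receptor, rose at TP3 and Fcgr4 was lower. None of the 7 genes of early B cell development and recombination and none of the 12 J segments passed the filter, and the J segments were listed at 0 in every tumor. In HGS2 no gene of these lists was called at any time point.

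Markers of other cell types moved in the same tumors. The 4 adipocyte genes were higher at TP1, TP2 and TP3 in 60577 and rose again from TP2 to TP3, with summed levels of 0.9 to 6.2 CPM in the TP2 controls, 70.1 to 519 CPM in the TP2 treated tumors and 1030 to 1510 CPM at TP3, and Plin1 as the most abundant gene. The 4 tested epithelial tumor cell genes were lower at TP1, TP2 and TP3, with summed levels of 1502 to 2592 CPM in the TP2 controls and 179 to 293 CPM at TP3, and Krt19 as the most abundant. At TP1 all 4 adipocyte genes were higher and all 4 epithelial genes lower. Of the 80 immunoglobulin genes 3 were called there, all higher, against 9.65% of all genes called higher and 5.96% called lower. Of 6 T cell genes, 5 rose at TP2 and all 6 at TP3, and none rose from TP2 to TP3. Of 5 macrophage genes, 2 rose at TP3.

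Pancreatic acinar genes, which mark adjoining pancreas, were summed at 1090, 1.01 and 203 CPM in the TP2 controls, 0.712 to 10.9 CPM in the TP2 treated tumors and 44.3 to 348 CPM at TP3, and at up to 65127 CPM in HGS2, with Ctrb1 as the most abundant. All 5 were lower at TP2, none was called at TP3 and all 5 rose from TP2 to TP3. The part of adipose, pancreatic and tumor cell content in the immunoglobulin values was not tested. The cultured cell lines held 0 and 1 immunoglobulin counts (60577) and 85 and 9 counts (HGS2) in libraries of 31633121 to 42461995 counts, and the count of 0 allows a level of up to 0.0848 CPM (3 counts).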

How the data were processed

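RNA-seq libraries of 34 tumors and 4 cell line cultures were analyzed. Per the submitters' processing notes, the authors trimmed reads with Trim Galore 0.6.5, aligned them with STAR 2.7.0f to GRCm38 (mm10) and estimated counts with RSEM. The deposited files hold expected counts (estimated counts, not normalized) for 55487 genes. These divide reads among similar genes, and 3.57% of values were not whole and were rounded for tests. Symbols came from GENCODE M21 (55227 genes matched and 260 did not).

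Library totals and CPM were computed from all genes. A gene was tested if 25% or more of 33 tumors (9 tumors) reached 1 CPM. The 16241 genes left were scaled by TMM and fitted in R 4.3.3 with the quasi-likelihood test of edgeR 4.0.16, whereas the study's methods name edgeR with limma and a normalization for gene length and GC content. The 5 groups of a model were fitted together, and contrasts between models used a fit of all 10 groups. Replicates are separate mice, and none of 42 within-group pairs agreed within sampling noise. The test was tried on simulated counts. Alternatives were other normalizations and filters, limma-voom (limma 3.58.1), DESeq2 1.42.0, a replicate block, joint fits and leaving out each tumor. The members and the gene lists were chosen with earlier results of these data known. Named genes were all constant genes, lambda V genes, the leading heavy and kappa V gene of each tumor, the 4 B-1 V genes, the listed marker genes and the 10 called genes with the largest change in each comparison, and others named were chosen after their values were seen. Shares, effective numbers and intervals used Python 3.11.15 and scipy 1.17.1, V gene alignments Biopython 1.88 and plots matplotlib 3.10.9. Replicate 1 of the HGS2 TP3 tumors entered only the alternatives with all 17 HGS2 tumors, and the cell lines entered no test. A gene of the B cell list is not reported here.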

Additional observations from a re-analysis of the deposited data

Results flagged for a closer look

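In groups of 4 tumors, 1 tumor stood far from the others in 5 of 76 group and measure combinations. The threshold gives about 1 in 20 by chance for independent values. Many of these measures come from the same tumors and depend on each other, so that rate does not hold for the set. Replicate 1 of the 60577 TP2 treated tumors had a summed immunoglobulin level of 1647 CPM, while the others lay between 279 and 460 CPM. Replicate 3 of the 60577 TP3 tumors had 8899 CPM, while the others lay between 5660 and 6141 CPM, and lambda genes held 5.09% of its light chain V counts, against 1.95% to 2.37% in the others. Ighm held 92.04% of heavy constant counts per kb in replicate 2 of the 60577 TP2 treated tumors, against 63.4% to 67.9% in the others. Ighg3 held 19.7% in replicate 3 of the HGS2 TP3 tumors, against 0.242% to 1.57% in the others.

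The response to treatment at TP2 differed between the models by the interaction test of edgeR for Ighd (log2 difference of HGS2 minus 60577 -6.02, adjusted p = 0.0448), Iglc3 (-4.23, adjusted p = 0.0451) and Iglv3 (-6.11, adjusted p = 0.0344). These are 3 of 80 genes, a share near the 3.21% of all genes called lower, so they are no result about immunoglobulin genes. No immunoglobulin gene was called without a filter, under limma-voom, with a replicate block or with all 17 HGS2 tumors, nor without replicate 2 of the 60577 TP2 controls, replicate 3 or 4 of the 60577 TP2 treated tumors, replicate 3 of the HGS2 TP2 controls or replicate 2 of the HGS2 TP2 treated tumors.

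The cultured HGS2 cells, which entered no comparison, held 85 immunoglobulin counts in replicate 1 and 9 in replicate 2. In replicate 1 these were 71 for Ighm, 9 for Ighg1, 3 for Ighg2b and 2 for Ighg2c, and in replicate 2 they were 7 for Ighg1 and 2 for Ighm.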

How the results depend on the processing

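In 60577 the 57 immunoglobulin genes higher at TP3 became 97 without a filter, which tests more genes, and 34 with both models in 1 fit, and were 43 to 59 when single tumors were left out. Against the mean of TP1 and TP2 controls, a setting added after seeing the data, 67 were called, 57 of them shared. The 11 genes at TP2 became 7 under limma-voom and 4 with both models in 1 fit (7 to 15 without single tumors, 7 being without replicate 1 of the TP2 treated tumors). The 3 genes at TP1 became 0 under limma-voom, 5 under DESeq2, 0 with a replicate block and 0 in the fit of both models (0 to 3 without single tumors). From TP1 to TP2 the 3 genes became 11 under DESeq2, 0 with the block and 0 in the fit of both models (0 to 8), and from TP2 to TP3 the 43 genes became 17 in that fit (24 to 56). The response difference at TP1 went from 0 to 1 gene under DESeq2, and at TP2 from 3 to 0 without a filter, 1 with filterByExpr, 0 under limma-voom, 8 under DESeq2, 0 with the block and 0 with all 17 HGS2 tumors (0 to 3). Between HGS2 and 60577 controls 58 genes were called, all higher in HGS2. Counting calls in either direction, these became 110 without a filter, a few of them lower, 110 with filterByExpr, 24 under limma-voom and 28 with the block (48 to 60). In HGS2 each count was 0 throughout. Scaling by DESeq2's size factors, or by factors computed without immunoglobulin genes, gave the counts of the main normalization.

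Replicate numbers did not pair the tumors, since same-numbered tumors had a median correlation of deviations of -0.0374 over 31 pairs in 60577 (-0.417 to 0.319) and -0.0810 over 27 pairs in HGS2 (-0.490 to 0.369). With the replicate block, 52 genes were called at TP3, 9 at TP2 and 31 from TP2 to TP3 in 60577.

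Some signs turned. In HGS2 at TP2, where no gene was called, the log2 fold change of Igkc was -0.69 to 0.49 without single tumors and 0.56 with the replicate block, and that of Ighm was -1.02 to 0.51 and 0.69. With all 17 HGS2 tumors, Igkc became 0.48 and Ighm 0.29 at TP3. In 60577 at TP2, leaving out single tumors gave -5.60 to 0.041 for Igkv10-94, -4.05 to 1.32 for Igkv4-72 and -3.49 to 1.92 for Igkv4-57, each with the highest value without replicate 3 of the controls, and -0.42 to 2.33 for Jchain, with the lowest value without replicate 1 of the treated tumors. Igkv4-57 was 0.46 under limma-voom. The cause of these changes was not tested. Depth limits V shares in the 60577 tumors with few V counts.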

Other observations

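V genes annotated as pseudogenes took a median of 2.31% of heavy V counts in 60577 tumors, with a range of 0% to 8.24%, and at most 0.144% in HGS2 tumors, whose median was 0%. In 60577 these counts lay mostly on Ighv3-2 (273 counts), Ighv4-2 (210 counts) and Ighv1-14 (106 counts). The annotation is that of the C57BL/6J strain, whereas 60577 tumors grew in FVB mice, so V gene status in FVB was not analyzed here. This split was not tested.

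Lambda genes held 32.0% of light chain V counts in replicate 2 of the HGS2 TP2 treated tumors, a tumor with only 87 kappa V counts, and 2.33% and 4.12% in the other tumors of that group.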
